A study of Homo sapiens with 12 samples.

Results

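Cells that copy their genome must make the 4 deoxynucleotides from which DNA is built. Expression of 7 genes for enzymes that make or recycle them (RRM1, RRM2, TYMS, DUT, TK1, DCK and DTYMK) was followed by RNA sequencing in tumours grown in mice from MCFDCIS, a human breast cell line whose xenografts resemble ductal carcinoma in situ. The genes were picked by name from the pathway with earlier results of these data known, so their shares are descriptions and not independent evidence, and all 7 were found among the 58243 human genes of the count files and passed the filter on low counts that left 18628. Cells were placed under the skin of athymic nude mice, which lack mature T cells but keep other host cells, and grew for 2 weeks before treatment began. There were 4 groups of 3 tumours: vehicle initial and palbociclib initial, taken after 2 weeks of treatment, and vehicle recovery and palbociclib recovery, taken after the same 2 weeks and a recovery period of a length that the labels do not state. Palbociclib, which blocks the cyclin-dependent kinases CDK4 and CDK6, was given by mouth each day at 50 mg per kg. All groups share the cell line and the host strain. The age and sex of the mice and the composition of the vehicle are not stated in the labels, nor is it stated that the tumours of a group came from different mice, so the p-values reflect the spread among these samples, which may in part be technical.

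Ribonucleotide reductase turns ribonucleoside diphosphates into deoxyribonucleoside diphosphates and is the rate-limiting step of the pathway. Its large subunit RRM1 carries the catalytic and the regulatory sites, and its small subunit is either RRM2, made in S phase and degraded afterwards, or RRM2B, the form induced by p53 and used outside S phase. Thymidylate has its own route: DUT cleaves dUTP to dUMP, TYMS methylates dUMP to dTMP, and DTYMK adds the second phosphate to dTMP. The salvage kinases TK1 and DCK recover thymidine and deoxycytidine in the cytosol, while TK2 and DGUOK are salvage kinases of mitochondria. Many of these genes are textbook targets of the E2F transcription factors, which are released from the retinoblastoma protein once cyclin-dependent kinases phosphorylate it, and genes that peak later in the cycle are often controlled through CHR elements and CCAAT boxes.

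The promoters of the enzymes with the clearest differences between groups, and of RRM1 as the partner of RRM2, are shown because they differ in these motifs. They are RefSeq sequences of GRCh38.p14, on the gene's strand, from 250 bases before to 50 bases after the annotated start taken for each gene, and all 7 members had one. Other annotated starts of a gene were not searched. The RRM2 and DCK windows lie inside the gene coordinates given below, downstream of the first base of the gene. Capitals mark exact matches, on either strand, to the E2F motifs TTTGGCGC, TTTCCCGC, TTTGCCGC and TTTCGCGC, the E2F core GGCGGGAA, the CHR motifs TTTGAA and TTCGAA, and CCAAT. No match shares bases with another in the 7 windows. The RRM2 window is chr2:10122489-10122788 (plus strand), that of RRM1 chr11:4094435-4094734 (plus strand), that of DTYMK chr2:241686766-241687065 (minus strand) and that of TK1 chr17:78187155-78187454 (minus strand).
RRM2: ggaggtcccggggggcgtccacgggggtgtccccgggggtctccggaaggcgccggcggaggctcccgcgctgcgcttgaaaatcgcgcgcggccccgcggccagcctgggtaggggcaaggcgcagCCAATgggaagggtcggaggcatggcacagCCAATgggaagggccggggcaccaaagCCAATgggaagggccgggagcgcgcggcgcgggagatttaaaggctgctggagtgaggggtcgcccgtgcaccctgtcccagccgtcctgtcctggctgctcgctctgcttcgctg
RRM1: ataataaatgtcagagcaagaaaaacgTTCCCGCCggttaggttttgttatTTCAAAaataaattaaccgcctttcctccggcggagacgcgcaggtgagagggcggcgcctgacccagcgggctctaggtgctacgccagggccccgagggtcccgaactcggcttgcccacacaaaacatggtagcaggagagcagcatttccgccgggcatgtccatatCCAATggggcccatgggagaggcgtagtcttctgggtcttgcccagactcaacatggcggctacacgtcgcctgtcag
DTYMK: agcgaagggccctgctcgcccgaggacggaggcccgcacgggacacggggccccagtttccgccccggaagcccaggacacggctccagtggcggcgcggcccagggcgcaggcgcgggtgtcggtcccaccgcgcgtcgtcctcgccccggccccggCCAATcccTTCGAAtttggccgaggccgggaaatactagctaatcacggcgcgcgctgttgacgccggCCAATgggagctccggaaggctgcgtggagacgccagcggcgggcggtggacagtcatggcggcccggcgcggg
TK1: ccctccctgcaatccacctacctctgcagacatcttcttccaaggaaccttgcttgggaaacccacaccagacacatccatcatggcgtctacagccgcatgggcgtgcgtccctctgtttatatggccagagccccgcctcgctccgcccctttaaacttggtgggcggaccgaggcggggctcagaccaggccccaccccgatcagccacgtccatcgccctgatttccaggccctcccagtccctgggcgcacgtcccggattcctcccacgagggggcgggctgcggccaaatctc
The RRM2 window held 3 CCAAT boxes, whose first bases lie at -123, -93 and -66 from the start, and none of the E2F or CHR motifs. RRM1 held the E2F core on the opposite strand at -223, a CHR motif on the opposite strand at -199 and a CCAAT box at -28. DTYMK held a CHR motif at -84 and CCAAT boxes at -92 and -24, and the TK1 window held no match. Of the windows not printed, TYMS held TTTCCCGC on the opposite strand at -39, DCK held TTTGGCGC on the opposite strand from base 22 after the start, and DUT held no match. Any of the E2F motifs stood in 3 of the 7 members and in 5.58% of 35116 RefSeq promoters of the same length, any CHR motif in 2 of 7 and 16.4%, and CCAAT in 3 of 7 and 34.6%. A match describes letters in the window, and no binding was measured.

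**Figure D1:**
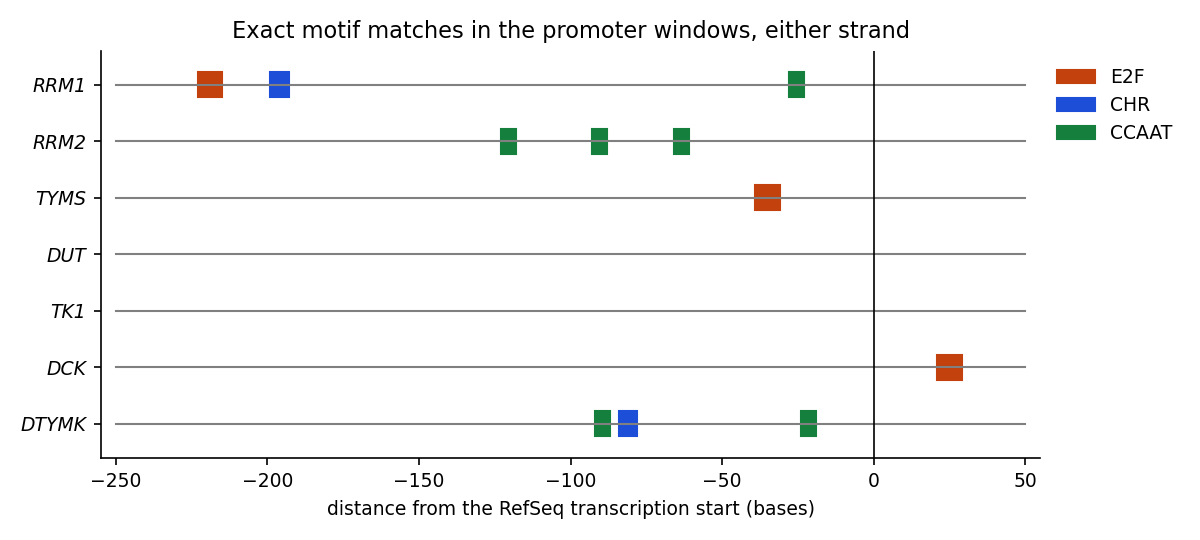
Positions of exact motif matches (boxes, coloured by motif, either strand) in the promoter window of each of the 7 genes, in bases from the RefSeq transcription start (vertical line). RRM2 has 3 CCAAT boxes and no E2F match, RRM1, TYMS and DCK have 1 E2F match each, and DUT and TK1 have no match.

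Counts assigned to genes numbered 8004903 to 15716211 per library, of which 14.2% to 25.4% were mouse, and human counts, the base of every level here, numbered 6613880 to 12352064. The cell line's markers were present in every tumour: the 6 basal epithelial markers, among them KRT5, KRT14 and TP63, summed to 6228 to 10747 CPM (human counts scaled to library size with trimmed mean of M-values, TMM, factors), while human copies of 6 immune markers summed to 4.15 to 17.1 CPM, of 6 fibroblast and adipocyte markers to 7.83 to 47.9 CPM and of 4 endothelial markers to 51.8 to 140 CPM, of which PECAM1 alone reached 114. Libraries that stood apart were vehicle initial 2 and 3, with 5.32% and 11.2% of human counts from mitochondrial genes against at most 2.64% elsewhere, and palbociclib initial 3, with the highest mouse share. Vehicle recovery 2 had the smallest share of counts in rows that name no gene, 37.0% against up to 69.1%. It had the lowest TMM factor of the 12 (0.859) and was the highest in CPM for all 7 members. In CPM of human counts with no scaling factor it was the highest for 5, and second for RRM1 (121 against 122 in vehicle initial 1) and DTYMK (36.99 against 37.5 in vehicle recovery 3). Palbociclib initial 3 was the lowest for all 7 on either scale.

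Compared per length, as mean CPM per kb of exon, vehicle initial tumours carried most TK1 (27.3), then RRM1 (23.7), DUT (18.5), DTYMK (12.4), RRM2 (10.3), DCK (4.66) and TYMS (3.61). The ranges of TK1 and RRM1 overlapped, as did those of DTYMK and RRM2, and the other neighbours in this order did not. In palbociclib initial tumours RRM2 stood at 2.78 CPM per kb, between DCK at 3.22 and TYMS at 2.37 and overlapping both, and RRM1, DUT and TK1 overlapped in turn at 16.2, 15.04 and 12.7. In palbociclib recovery tumours the order by this measure was that of the vehicle initial tumours, with TK1 at 34.5 and RRM2 at 10.1 CPM per kb, and no neighbours overlapped. TYMS is the least certain of these levels, because 39.2% of its exon bases lie opposite exons of ENOSF1, an antisense gene with 368 to 1019 counts per library against 53 to 143 for TYMS, and whether the counting used strand is not stated in the labels. When the same whole-gene CPM was divided by the kb of exon shared with no other gene, the order changed in several places. Counts on shared exons were not taken out, and whether the counting had dropped them is not stated in the labels. In vehicle initial tumours TYMS stood at 6.75, above DCK at 4.97, and RRM2 at 12.9, level with DTYMK at 12.4, whose range it overlapped. In palbociclib initial tumours TYMS at 4.44 stood above RRM2 at 3.49 and DCK at 3.44 with overlapping neighbours, and DUT at 17.6 above RRM1 at 16.5, also overlapping. In palbociclib recovery tumours TYMS at 6.63 again lay above DCK at 4.70 without overlap, and DTYMK and RRM2 overlapped.

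The first comparison asked what palbociclib had done to these genes by the end of treatment. RRM2 fell to 27.0% of its vehicle level, the only member whose difference passed, and TK1 stood at 46.7% of its vehicle level. The other 5 stood at 65.7% to 81.3%. For each of the 7 genes all 3 palbociclib tumours lay below all 3 vehicle tumours in TMM-scaled CPM, and this held for 11.3% of the 18628 genes tested. With no scaling factor the groups overlapped for RRM1 and DUT, as palbociclib initial 2 then stood above vehicle initial 3. In bulk tumours fewer cells that make a transcript and less of it per cell cannot be told apart, and the cycling marker MKI67 moved the same way, from 219 ± 46.2 to 40.8 ± 13.9 CPM (SD, n = 3). The summed level of 5 cycling markers (MKI67, TOP2A, PCNA, CCNB1 and MCM2, none at 0) ranged over 616 to 753 CPM in vehicle and 145 to 299 CPM in palbociclib tumours, and its part in the results was not tested.

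RRM2 (ENSG00000171848, GRCh38 chromosome 2, 10120698 to 10131419), the S phase subunit of ribonucleotide reductase, read 57.2, 61.1 and 46.4 CPM in the 3 vehicle initial tumours and 13.2, 19.0 and 12.2 CPM in the 3 palbociclib initial tumours. The groups lay far apart relative to the spread inside each of them. The log2 fold change was -1.90 ± 0.24 (SE, edgeR quasi-likelihood test, adjusted p = 0.00071), with a 95% interval from -2.41 to -1.38. RRM1 (ENSG00000167325, chromosome 11, 4094707 to 4138876), the large subunit, read 118, 93.5 and 85.5 CPM under vehicle and 66.9, 85.3 and 51.3 CPM under palbociclib. Its groups almost touched, with palbociclib initial 2 just under vehicle initial 3, and its log2 fold change of -0.55 ± 0.18 did not pass (edgeR adjusted p = 0.229).

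TK1 (ENSG00000167900, chromosome 17, 78174075 to 78187233), the cytosolic thymidine kinase, read 61.1, 49.4 and 41.8 CPM under vehicle and 23.8, 31.0 and 16.3 CPM under palbociclib. Its log2 fold change of -1.11 ± 0.27 missed the threshold (edgeR adjusted p = 0.0696), and passed without vehicle recovery 2, a library outside the comparison that enters the shared estimate of spread (-1.11, adjusted p = 0.00812), and without palbociclib initial 2 (-1.34, adjusted p = 0.0441). DTYMK (ENSG00000168393, chromosome 2, 241675742 to 241686991), the thymidylate kinase, read 34.2, 30.5 and 26.5 CPM under vehicle and 23.2, 19.9 and 17.1 CPM under palbociclib. Its log2 fold change was -0.60 ± 0.16 (edgeR adjusted p = 0.0765, and 0.0143 without vehicle recovery 2). Both genes therefore lay near the threshold, on the side that did not pass.

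DCK (ENSG00000156136, chromosome 4, 70992538 to 71030914), the deoxycytidine kinase that also activates gemcitabine and cytarabine, read 16.1, 15.5 and 13.6 CPM under vehicle and 11.5, 10.9 and 8.76 CPM under palbociclib, a log2 fold change of -0.54 ± 0.19 (edgeR adjusted p = 0.281). TYMS (ENSG00000176890, chromosome 18, 657604 to 673578), thymidylate synthase and the target of fluorouracil, read 8.64, 8.63 and 9.46 CPM under vehicle and 5.68, 6.80 and 5.10 CPM under palbociclib, a log2 fold change of -0.60 ± 0.20 (edgeR adjusted p = 0.221). DUT (ENSG00000128951, chromosome 15, 48331011 to 48343373), the dUTPase, read 70.6, 66.6 and 66.7 CPM under vehicle and 58.5, 61.7 and 45.5 CPM under palbociclib, a log2 fold change of -0.30 ± 0.15 (edgeR adjusted p = 0.584). In TMM-scaled CPM these 3 genes were lower in every palbociclib tumour, by amounts that did not pass. DUT, whose groups overlapped with no scaling factor, had the smallest difference of the 7.

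In all, 1 of the 7 members passed as lower, against 1.7% of all genes tested, and 6 had an unadjusted p under 0.05 (all but DUT), as 6.68% of all genes did in this direction. Without palbociclib initial 3 that 6 became 4 (against 4.87% of all genes), as it did with the mouse share as a covariate (4.76%). RRM2 at -1.77 still passed without that library (edgeR adjusted p = 0.00711), while the other values lay between -0.89 for TK1 and -0.17 for DUT. The median log2 fold change of the members was -0.60, and that of all genes tested 0.0014. DESeq2 called 3 members lower (RRM2, TK1 and DTYMK) against 2.48% of all genes, and limma-voom 1 against 1.49%. The edgeR count was 3 without vehicle recovery 2, against 2.99%.

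**Figure D2:**
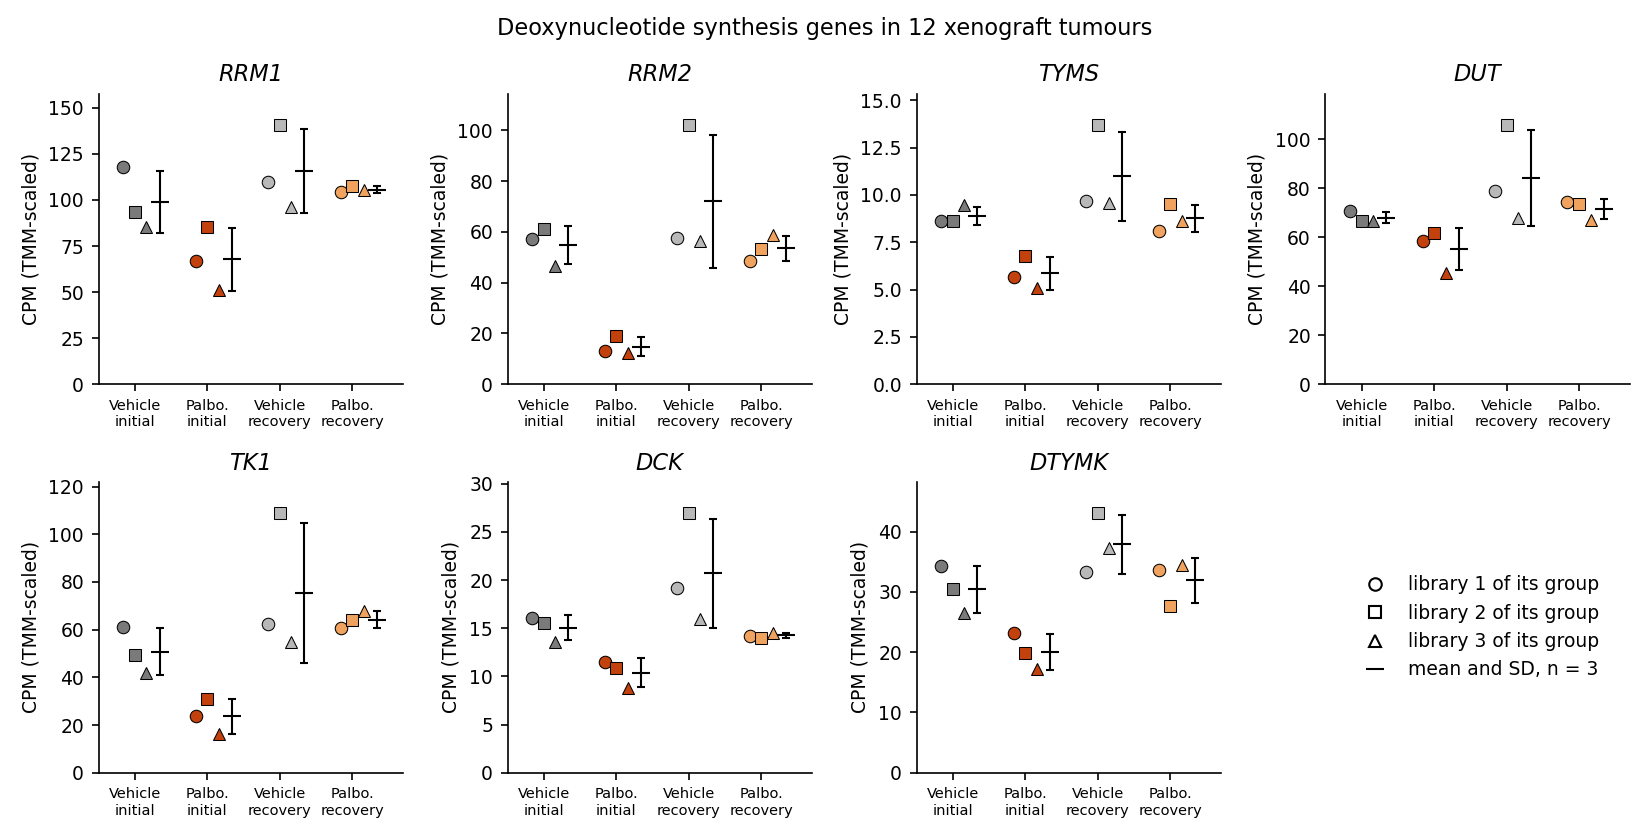
CPM (TMM-scaled, linear axis from 0) of the 7 genes in each of the 12 tumours, with the mean and SD of each group of 3. The 3 palbociclib initial tumours (dark orange) lie below the 3 vehicle initial tumours in every panel, and vehicle recovery 2 (light grey square) is the highest tumour in every panel.

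After recovery no member differed between the arms by edgeR's test, against 0.00537% of all genes called in this comparison. By unadjusted p 1 member (DCK) was under 0.05, as 5.45% of all genes were in its direction, and DESeq2 and limma-voom called 0 members (0.107% and 0% of all genes). RRM2 read 57.4, 102 and 56.5 CPM in vehicle recovery tumours and 48.7, 53.4 and 58.6 CPM in palbociclib recovery tumours, so the arms overlapped, with vehicle recovery 2 far above the rest. The log2 fold change of RRM2 was -0.43 ± 0.22 (edgeR adjusted p = 0.578) with a 95% interval from -0.90 to 0.05, and without vehicle recovery 2 it was -0.09. TK1 read 62.3, 109 and 54.9 CPM under vehicle and 60.7, 64.1 and 67.9 CPM after palbociclib, a log2 fold change of -0.23 ± 0.26 (edgeR adjusted p = 0.749) that turned to 0.13 without vehicle recovery 2. RRM1 read 110.0, 141 and 96.2 CPM against 104, 107 and 105 CPM, a log2 fold change of -0.13 ± 0.18 that turned to 0.03 without that library. Its 3 palbociclib recovery tumours lay close together, with an SD of 1.65 CPM.

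DCK and TYMS were the members whose arms did not overlap after recovery in TMM-scaled CPM, 2 of 7 against 5.51% of all genes that were lower without overlap. The TYMS arms were barely apart. Palbociclib recovery 2 read 9.54 CPM from 103 counts, and vehicle recovery 3 read 9.60 CPM from 74 counts. With no scaling factor the TYMS arms overlapped. DCK read 19.2, 26.9 and 16.0 CPM under vehicle and 14.2, 14.0 and 14.6 CPM after palbociclib, a log2 fold change of -0.54 ± 0.18 (edgeR adjusted p = 0.573). Without vehicle recovery 2 that value was -0.31. TYMS read 9.68, 13.7 and 9.60 CPM under vehicle and 8.11, 9.54 and 8.63 CPM after palbociclib, a log2 fold change of -0.33 ± 0.19 (edgeR adjusted p = 0.587), and -0.14 without that library. DUT at -0.24 ± 0.15 and DTYMK at -0.25 ± 0.15 overlapped between the arms, and became -0.04 and -0.14 without it. All 7 estimates were below 0, with a median of -0.25 against -0.0019 for all genes tested. The median without vehicle recovery 2 was -0.09 against 0.0054, and 5 of the 7 were below 0.

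Within the palbociclib arm RRM2, TK1 and DTYMK rose between the end of treatment and recovery, 3 of 7 members against 2.36% of all genes tested. This comparison uses the same palbociclib initial tumours as the first, so the pair are not independent. RRM2 went from 14.8 ± 3.63 to 53.6 ± 4.96 CPM (SD, n = 3), a log2 fold change of 1.86 ± 0.24 (edgeR adjusted p = 0.000749). TK1 went from 23.7 ± 7.37 to 64.2 ± 3.601 CPM (SD, n = 3), a log2 fold change of 1.44 ± 0.27 (edgeR adjusted p = 0.0127), and missed the threshold without palbociclib initial 1 (adjusted p = 0.0701) or 3 (0.0561). DTYMK went from 20.1 ± 3.03 to 31.9 ± 3.76 CPM (SD, n = 3), with 33.6, 27.6 and 34.5 CPM in the 3 recovery tumours and a log2 fold change of 0.67 ± 0.15 (edgeR adjusted p = 0.033). That call did not survive leaving out palbociclib initial 1, 2 or 3 or palbociclib recovery 1 or 3 (adjusted p = 0.0539, 0.12, 0.181, 0.13 and 0.133), nor vehicle initial 2 and 3 together (0.0636), and it was lost with human totals and no scaling factor (0.0518) or with human plus mouse totals (0.105). RRM2 passed whichever library was left out. DESeq2 called 4 members higher against 3.51% of all genes, and limma-voom 3 against 2.19%.

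In TMM-scaled CPM the remaining 4 were higher in every palbociclib recovery tumour than in any palbociclib initial tumour without passing. RRM1 had a log2 fold change of 0.64 ± 0.18 (edgeR adjusted p = 0.0896), TYMS of 0.58 ± 0.20 (0.169), DCK of 0.45 ± 0.19 (0.285) and DUT of 0.37 ± 0.15 (0.278). Without vehicle recovery 2 RRM1, TYMS and DUT passed as well (adjusted p = 0.028, 0.0442 and 0.0426), which gives 6 of 7, but in that fit the share of all genes called higher also rose, from 2.36% to 5.06%. Without palbociclib initial 3 RRM2 alone passed, and these 4 lay between 0.25 and 0.49. All 7 had an unadjusted p under 0.05, against 8.81% of all genes. In TMM-scaled CPM the groups lay apart for all 7, which held for 14.9% of all genes tested in this direction. With no scaling factor DUT overlapped, as palbociclib recovery 3 then stood just below palbociclib initial 2. The members' median was 0.64, against -0.0109 for all genes tested. MKI67 was 183 ± 4.27 CPM and the cycling marker sum 651 to 680 CPM in palbociclib recovery tumours, so the cycling markers again moved with the members, and their part was not tested.

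In the vehicle arm, which received no drug, recovery against the end of treatment gave log2 fold changes of 0.22 to 0.57. No member passed by edgeR, against 0% of all genes. Whether its recovery period was as long as that of the palbociclib arm is not stated in the labels. By unadjusted p 1 member (DCK) was under 0.05, as 7.97% of all genes were in its direction, and DESeq2 and limma-voom called 0 members (0.451% and 0% of all genes). TYMS was the 1 member whose vehicle groups did not overlap, being higher after recovery, as 6.7% of all genes were. Without vehicle recovery 2 the 7 values lay between 0.05 and 0.22.

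Whether the palbociclib effect itself differed between the end of treatment and recovery was tested as the difference of the effects. RRM2 had the largest difference, 1.47 ± 0.32 on the log2 scale with a 95% interval from 0.77 to 2.16 (edgeR adjusted p = 0.128), followed by TK1 at 0.87 ± 0.37 (edgeR adjusted p = 0.922). No member passed by edgeR, against 0.22% of all genes. RRM2 and TK1 had an unadjusted p under 0.05 (3.46% of all genes in this direction). DESeq2 called 1 member (RRM2, adjusted p = 0.0127) against 0.558% of all genes, and limma-voom 0 against 0.274%. Without vehicle recovery 2 the RRM2 difference was 1.81 and passed (adjusted p = 0.000159, with 0.832% of all genes called), while TK1 at 1.24 did not (adjusted p = 0.117). RRM1 at 0.42, DTYMK at 0.36, TYMS at 0.27, DUT at 0.06 and DCK at -0.01 had intervals that included 0, that of DCK from -0.59 to 0.57.

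**Figure D3:**
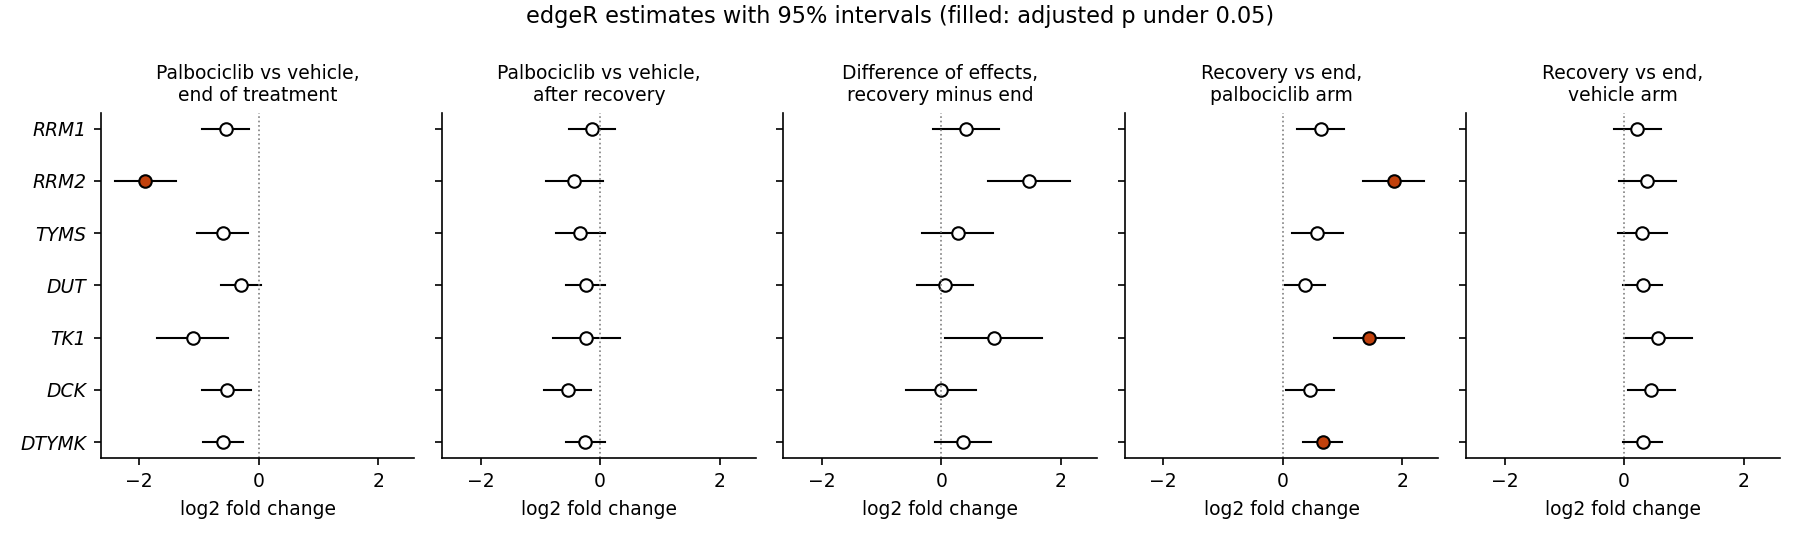
Log2 fold changes (points) of the 7 genes with 95% intervals (lines) from edgeR in the 5 comparisons, filled where the adjusted p is under 0.05. RRM2 is filled at the end of treatment (-1.90), and RRM2, TK1 and DTYMK are filled for recovery against end of treatment in the palbociclib arm (1.86, 1.44 and 0.67).

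Ratios of related enzymes inside a tumour do not depend on how libraries were scaled, and 4 such pairs were compared. RRM2 and RRM2B are alternative partners of RRM1, and their ratio of counts per kb was 0.945, 1.23 and 1.01 in vehicle initial tumours and 0.186, 0.238 and 0.195 in palbociclib initial tumours. The mean went from 1.06 ± 0.150 to 0.206 ± 0.0276 (SD, n = 3), so near equality under vehicle, by full exon length, became an excess of RRM2B. The near equality depends on that length. By length of unshared exon the mean CPM per kb was 12.9 for RRM2 and 9.77 for RRM2B in vehicle initial tumours. In palbociclib initial tumours these means were 3.49 and 13.4. RRM2B itself read 63.1, 51.7 and 47.8 CPM under vehicle and 74.4, 83.3 and 65.5 CPM under palbociclib, without overlap, a log2 fold change of 0.45 ± 0.21 that did not pass (edgeR adjusted p = 0.506). After recovery the ratio averaged 1.06 ± 0.0721 in the palbociclib arm and 1.43 ± 0.223 in the vehicle arm (SD, n = 3), and these groups did not overlap either.

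The ratio of RRM2 to RRM1, the 2 subunits of the S phase enzyme, was 0.440 ± 0.0673 in vehicle initial and 0.173 ± 0.0161 in palbociclib initial tumours (SD, n = 3), so the small subunit was lower relative to the large one in all 3 palbociclib tumours. It was 0.398 ± 0.0361 after palbociclib and recovery and 0.480 ± 0.0816 in vehicle recovery tumours (SD, n = 3). TK1 to TK2, the thymidine kinase of mitochondria, went from 7.76 ± 1.77 under vehicle to 3.52 ± 1.45 under palbociclib (SD, n = 3). It stood at 8.30 ± 0.447 after palbociclib and recovery and 10.6 ± 4.47 in vehicle recovery tumours (SD, n = 3), where the arms overlapped. DCK to its mitochondrial relative DGUOK went from 0.278 ± 0.0261 to 0.200 ± 0.0251 at the end of treatment and stood at 0.269 ± 0.0472 after palbociclib and recovery (SD, n = 3). In the vehicle arm this ratio was higher after recovery without overlap, at 0.337 ± 0.0245 (SD, n = 3). In palbociclib initial relative to vehicle initial tumours TK2 and DGUOK had log2 fold changes of 0.09 ± 0.14 and -0.06 ± 0.17, neither of which passed.

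Of the 16 ratio tests (4 ratios in 4 comparisons) 10 had groups without overlap. Each of these gave the smallest p that 3 tumours against 3 allow in an exact two-sided permutation test, 0.1, or 0.16 after Benjamini-Hochberg adjustment, so the design cannot place a ratio past the threshold. Some ratios share RRM2 and the comparisons share groups, so the tests are not independent. No share over other gene pairs was taken to set beside the count.

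**Figure D4:**
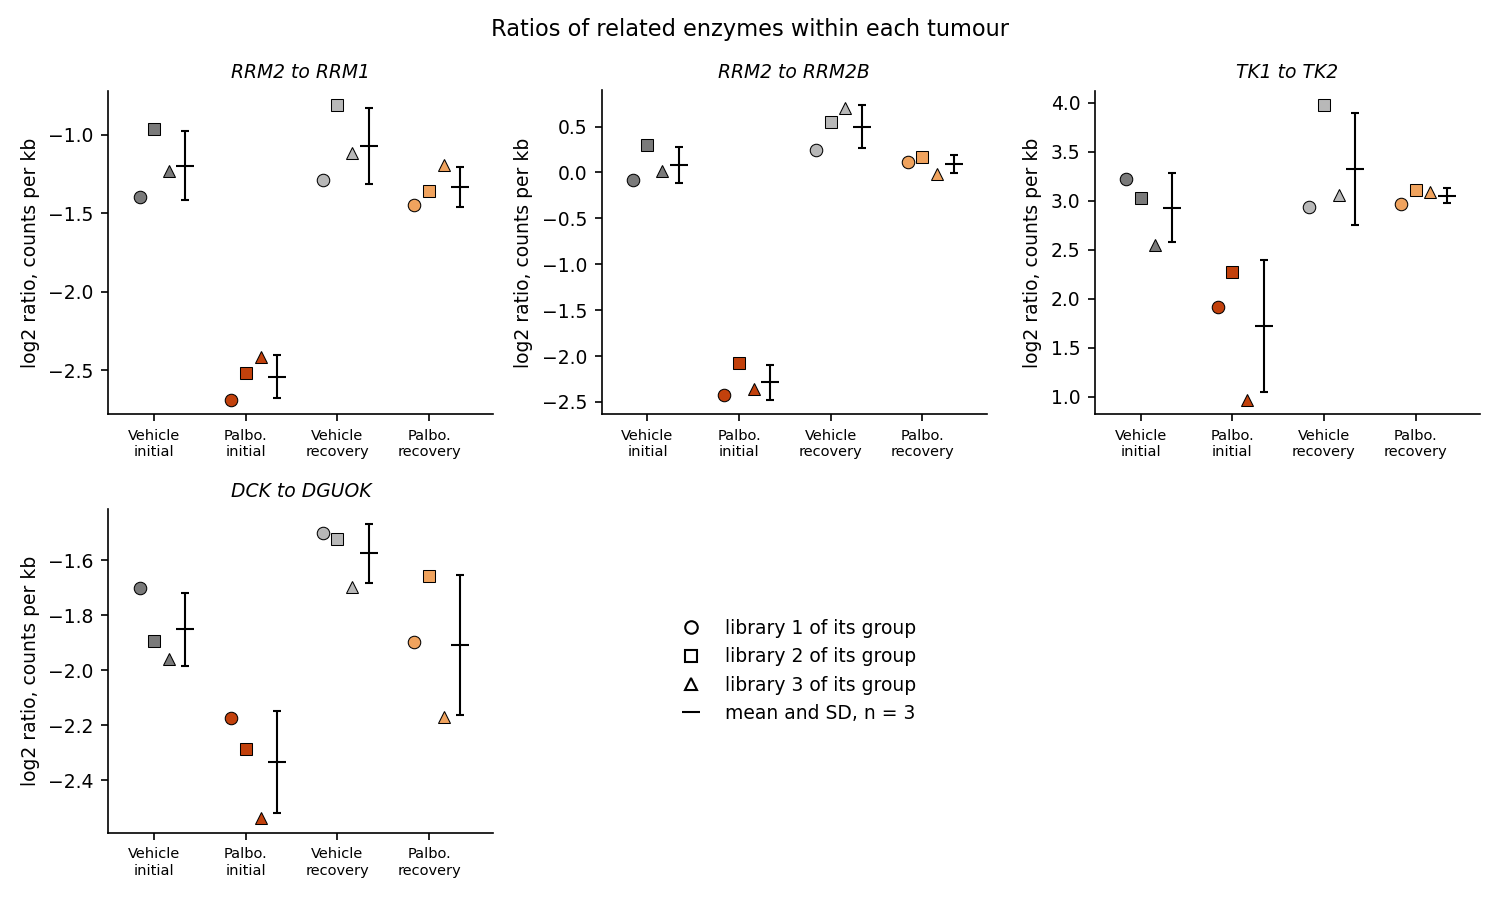
Log2 ratios of counts per kb for 4 pairs of related enzymes in each of the 12 tumours, with the mean and SD of each group of 3. RRM2 to RRM2B lies near 0 (equal counts per kb of full exon length) in vehicle initial tumours and between -2.43 and -2.07 in palbociclib initial tumours.

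Other genes of nucleotide metabolism were read from a list of 60, of which 58 were tested. At the end of treatment 1 of them fell (UPP1) and none rose, a share near the 1.7% among all genes. The median log2 fold change of the 58 was -0.09, against the members' -0.60. By role the medians were -0.28 for 7 thymidylate and folate cycle genes, 0.05 for 11 nucleoside and nucleotide kinases, 0.05 for 5 genes of de novo pyrimidine synthesis, -0.14 for 13 of de novo purine synthesis and -0.13 for 15 of pool cleaning and breakdown. All 7 folate genes were below 0 without passing, between -0.67 and -0.08. SAMHD1, which degrades deoxynucleotides, had a log2 fold change of 0.09 ± 0.16 (edgeR adjusted p = 0.941).

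UPP1 (chromosome 7, 48088628 to 48108733), uridine phosphorylase, which splits uridine for its ribose, read 47.8, 69.7 and 57.9 CPM in vehicle initial and 21.5, 21.2 and 23.2 CPM in palbociclib initial tumours. Its log2 fold change was -1.41 ± 0.14 (edgeR adjusted p = 9.13e-05). Between the end of treatment and recovery in the palbociclib arm it rose to 79.2, 81.5 and 75.9 CPM, a log2 fold change of 1.84 ± 0.14 (edgeR adjusted p = 1.15e-05). In that comparison 2 of 58 listed genes rose, near the 2.36% of all genes, and none fell, with a median of 0.12. The other was IMPDH1, the rate-limiting enzyme of guanine nucleotide synthesis, which went from 50.5 ± 1.42 to 72.5 ± 7.53 CPM (SD, n = 3), a log2 fold change of 0.52 ± 0.12 (edgeR adjusted p = 0.038). The IMPDH1 call was lost when palbociclib initial 1, 2 or 3 or palbociclib recovery 1, 2 or 3 was left out (adjusted p between 0.0722 and 0.188), while UPP1 passed each time.

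After recovery 0 of the 58 listed genes differed between the arms by edgeR, against 0.00537% of all genes. By unadjusted p under 0.05, 6 were lower, against 5.45% of all genes. DESeq2 and limma-voom called 0 of them (0.107% and 0% of all genes). In the vehicle arm 0 of the listed genes passed between the stages by edgeR, against 0% of all genes. By unadjusted p under 0.05, 10 were higher, against 7.97% of all genes. DESeq2 called 1 (0.451% of all genes) and limma-voom 0 (0%).

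The machinery that copies DNA, and so uses deoxynucleotides, was read from a list of 30 DNA replication genes, all tested. At the end of treatment 11 of them fell, against 1.7% of all genes, the other 19 failed the test, and the median log2 fold change was -0.71. Examples named after their values were seen are the licensing factors CDC6 at -1.48 ± 0.21 and CDT1 at -1.26 ± 0.19 and the DNA polymerase alpha subunit POLA2 at -1.16 ± 0.18, all smaller in size than the -1.90 of RRM2. Leaving out a library moved this count, to 4 without vehicle initial 1, palbociclib initial 1 or palbociclib initial 3, 5 without vehicle initial 2, 17 without palbociclib initial 2 and 18 without vehicle recovery 2, and leaving out both vehicle initial libraries of high mitochondrial share moved it to 1. Between the stages of the palbociclib arm 15 of the 30 rose, against 2.36% of all genes, with a median of 0.75, again with CDC6 at the front at 1.69 ± 0.21. That count was 4 to 6 without palbociclib initial 1 or 3 or with any 1 palbociclib recovery library left out, 7 without both vehicle initial libraries of high mitochondrial share, and 22 without vehicle recovery 2.

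**Figure D5:**
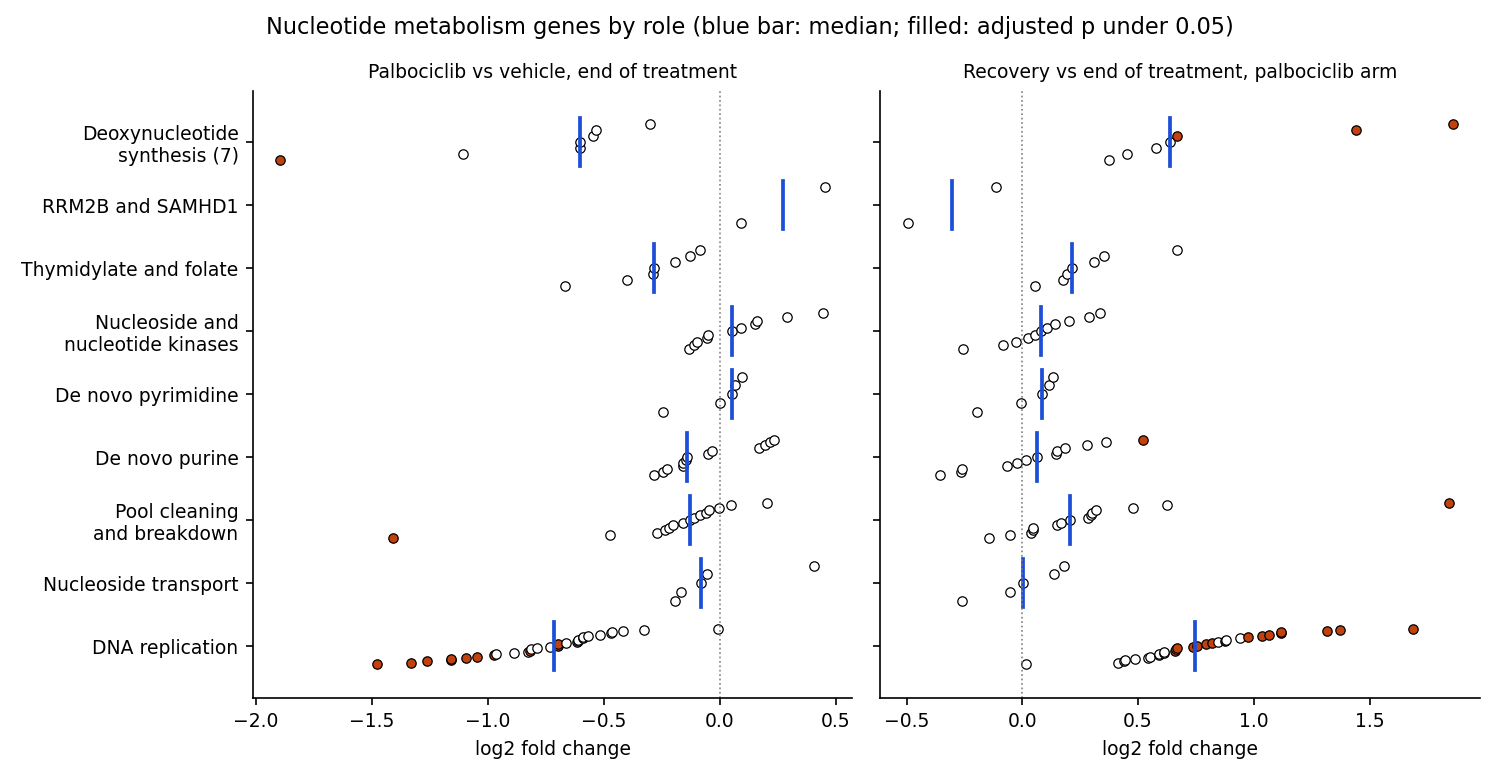
Log2 fold changes of the 7 deoxynucleotide synthesis genes, the other nucleotide metabolism genes by role and the DNA replication genes (1 point per gene, filled where the edgeR adjusted p is under 0.05, blue bar at the median of the row), at the end of treatment (left) and between the stages of the palbociclib arm (right). The 7 genes and the replication genes have medians of -0.60 and -0.71 on the left and 0.64 and 0.75 on the right, while the medians of the other roles lie nearer 0.

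Across the 12 tumours the members varied together. Pearson's r of log2 CPM over the 12 libraries lay between 0.838 (DUT with DTYMK) and 0.9753 (RRM1 with TK1), and over deviations from the group means between 0.232 (TYMS with DTYMK) and 0.963 (RRM1 with TK1). Spearman's rho over the 12 libraries lay between 0.636 (RRM2 with DUT) and 0.930 (RRM1 with TK1). These are descriptions of the same 12 libraries, which share their groups, their depth and vehicle recovery 2. No range over pairs of other genes was taken to set beside them. The genes most like each member by the same measure were taken as the 3 of highest r among all other genes tested. For RRM2 they were the mitotic genes KIF23 (0.993), TPX2 (0.993) and BUB1 (0.992), whose products act at the spindle, midbody or kinetochore. For TK1 they were FEN1 (0.989), the flap endonuclease of lagging strand synthesis, RNASEH2A (0.987) and the histone gene HIST1H2BJ (0.987).

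For RRM1 the most similar genes were the histone genes HIST2H3D (0.983) and HIST1H1D (0.978) and the helicase subunit MCM3 (0.977). For TYMS they were SLBP (0.982), which binds histone messages, GINS3 (0.981), a replicative helicase factor, and DEK (0.973). DTYMK had the kinetochore and mitotic genes CENPO (0.962), CDC20 (0.958) and NUF2 (0.956). DUT was nearest to CDCA7L (0.986), RAB32 (0.974) and TEAD4 (0.968). DCK was nearest to XPO1 (0.970), the nuclear export receptor, TEAD4 (0.969) and UBA2 (0.967). Histone genes have near-identical copies among which reads could have been split. Without vehicle recovery 2 the 21 values ranged from 0.938 to 0.993 over 11 libraries. Spearman's rho of the same pairs over the 12 libraries was lower, between 0.699 (DCK with TEAD4) and 0.958 (TYMS with SLBP). These genes were picked for their high r, and whether their kind differs between members was not tested.

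Near-identical copies and overlapping genes could take or give reads for a few members. DUT has 8 annotated pseudogenes with 592 counts in all, 6.96% of the 8508 counts of DUT over the 12 libraries, and an antisense gene over 14.5% of its exon bases with 11 to 30 counts per library. RRM2 has 3 pseudogenes with 14 counts in all, and 20.2% of its exon bases are shared with a read-through gene of 0 to 2 counts per library. DCK shares 6.17% of its exon bases with MOB1B on the same strand. TK1 and DTYMK share no exon bases with another gene.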

How the data were processed

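Tumour RNA (RNeasy) was made into TruSeq RNA libraries, per the labels' protocols. The authors deposited raw counts for Ensembl genes, with human and mouse genes in each file. Tools listed in the submitters' processing notes are STAR, cutadapt, CASAVA 1.8 and edgeR, and the builds are GRCh38 and GRCm38. For the counting program, the strand setting and the annotation release nothing is stated. The 4 rows of each file that name no gene (37.0% to 69.1% of counts) and 713 repeated rows were left out. Symbols, coordinates and exon lengths came from GENCODE 29, which named 57980 of 58243 human identifiers. Promoters came from RefSeq.

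Human counts were analysed with edgeR 4.0.16 in R 4.3.3: TMM scaling, filterByExpr (minimum count 10, minimum total 15), and 1 quasi-likelihood model of 4 group means over all 12 libraries. Benjamini-Hochberg adjustment ran over all 18628 genes tested, and a gene passed at an adjusted p under 0.05. Each standard error is the fold change divided by the root of its F statistic. DESeq2 1.42.0 and limma 3.58.1 (voom) were alternatives. Ratios used 0.5 added counts and exact two-sided permutation tests. The fitting steps were also run on counts simulated from the fitted spread of each gene. That run checks the steps and is not evidence for the calls reported here. A protein motif search that had been planned was not run. The 7 members and the gene lists were chosen with earlier results of these data known. Genes named are the 7 members, 4 related enzymes (a further one, and its ratio to a member, are not reported here), up to 3 listed genes per role and comparison with the smallest p among those that passed, replication genes given as examples after their values were seen, marker genes, overlapping genes and copies, and the 3 genes of highest r with each member.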

Additional observations from a re-analysis of the deposited data

Results flagged for a closer look

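UPP1, uridine phosphorylase, is given here because its palbociclib effect differed between the stages. The difference of the effects, recovery minus end of treatment, was 1.18 ± 0.19 on the log2 scale (edgeR quasi-likelihood test, adjusted p = 0.0183), from -1.41 at the end of treatment to -0.23 after recovery. Its means were 58.5 ± 10.97 CPM in vehicle initial, 21.96 ± 1.07 in palbociclib initial, 92.3 ± 9.54 in vehicle recovery and 78.9 ± 2.80 in palbociclib recovery tumours (SD, n = 3). The call did not hold without vehicle initial 2 or 3, palbociclib initial 1 or 3, vehicle recovery 1 or palbociclib recovery 1 or 2 (adjusted p between 0.0511 and 0.0896), nor without vehicle initial 2 and 3 together (0.89, adjusted p = 0.294).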

How the results depend on the processing

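No paired analysis was possible because the labels give no replicate numbers shared between groups. At the end of treatment the number of members called, 1 by the fit as reported, was 2 with upper quartile scaling, 3 with DESeq2, with a minimum count of 50 or with only the groups compared, 4 with no low-count filter, 5 with the share of rows that name no gene as a covariate, and 1 to 3 when libraries were left out in turn. All genes called, in either direction, numbered 343 of 18628 as reported. They were 364 of 18628 with upper quartile scaling, 524 of 18623 with DESeq2 and 390 of 12558 with a minimum count of 50. They were 689 of 17407 with only the groups compared, 753 of 38457 with no filter and 547 of 19389 with that covariate. Leaving libraries out in turn gave 160 to 748. For the difference of effects (0 as reported) the number of members called was 1 with upper quartile scaling, no scaling factor or DESeq2, 2 with no filter or that covariate, and 0 to 1 when libraries were left out. All genes called were 41 of 18628 as reported. They were 62 and 52 of 18628 with upper quartile scaling and no scaling factor, and 104 of 18623 with DESeq2. They were 320 of 38457 with no filter, 108 of 19389 with that covariate and 12 to 161 when libraries were left out. Between the stages of the palbociclib arm (3 as reported) the number of members called was 5 with only the groups compared, 4 with DESeq2, no filter or that covariate, 2 with human totals and no scaling factor or human plus mouse totals, and 1 to 6 when libraries were left out. All genes called there were 526 of 18628 as reported and 1616 of 17563 with only the groups compared. They were 822 of 18623 with DESeq2, 1147 of 38457 with no filter and 768 of 19389 with that covariate. They were 452 of 18628 with no scaling factor, 362 of 18649 with human plus mouse totals and 205 to 1425 when libraries were left out. In the vehicle arm (0 as reported) 1 member was called with no filter, where 1124 of 38457 genes were called. After recovery the number of members called was 0 under every alternative run. The ratio tests without overlap (10 as reported) numbered 10 to 12 when libraries were left out. RRM2 passed at the end of treatment and between the stages of the palbociclib arm under all 20 alternatives of each comparison. DNA replication genes called at the end of treatment (11) ranged over 1 to 22, and between the stages of the palbociclib arm (15) over 4 to 24. Listed metabolism genes called ranged over 1 to 2 (1 as reported) and 1 to 7 (2 as reported) in these comparisons, 0 to 3 after recovery (0), 0 to 4 between the stages of the vehicle arm (0) and 0 to 2 for the difference of effects (1), where replication genes called ranged over 0 to 4 (0). Of the recomputed gene values 895 kept their direction and side of the threshold, 40 gained a call and 27 lost one. The 34 reversals, and those of 2 ratios, were of values that had not passed. In the first comparison TK2 became -0.018 with the mouse share as covariate, DGUOK 0.0017 with no scaling factor, and SAMHD1 -0.0014 without vehicle initial 2 and 3. After recovery RRM1 became 0.106 with the mouse share and 0.027 with the unnamed share as covariate, and TK1 0.050 and 0.052. The DCK difference of -0.01 became 0.032 with upper quartile scaling, 0.031 with no scaling, 0.0094 with human plus mouse totals, 0.029 with voom, 0.039 with a minimum count of 50, 0.030 with the mouse share, 0.38 with the unnamed share and 0.079 without vehicle initial 2 and 3. DGUOK between the stages of the palbociclib arm became -0.014 with upper quartile scaling and -0.0072 with human plus mouse totals. In the vehicle arm RRM1, RRM2, DUT and TK1 became -0.16, -0.12, -0.0005 and -0.064 with the unnamed share, and RRM1 -0.022 without vehicle initial 2 and 3. Leaving libraries out in turn moved the following across 0: TK2 (-0.043 to 0.16) and SAMHD1 (-0.0004 to 0.18) at the end of treatment, RRM1 (-0.26 to 0.034), TK1 (-0.42 to 0.13) and the TK1 to TK2 ratio (-0.47 to 0.054) after recovery, the DUT (-0.083 to 0.26) and DCK (-0.17 to 0.23) differences, DGUOK between the stages of the palbociclib arm (-0.10 to 0.18), and the RRM2 to RRM1 ratio between those of the vehicle arm (-0.0056 to 0.24). The cause of these changes was not tested.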
